A study of Mus musculus with 12 samples.

Results

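The Hox genes of 4 lines of mouse embryonic fibroblasts (MEFs) were described by cluster and paralog group. Members were the rows of the gene count table whose symbol is Hox followed by a, b, c or d and a number, which gave 39 of 24453 genes: 11 in HoxA (chromosome 6, minus strand), 10 in HoxB (chr11:96194361-96368253, plus strand), 9 in HoxC (chr15:102921131-103036852, plus strand) and 9 in HoxD (chr2:74668310-74765142, plus strand), in GRCm38 coordinates. RNA was sequenced in 3 replicates per line, 12 libraries in all. TM6 MEFs come from C57BL6/J mice and carry floxed alleles of Pnpt1 (labelled Pnpt1 neo-flox/neo-flox, a genotype that the labels give for all 12 libraries), the gene of the mitochondrial RNA-processing enzyme PNPase, and were the untreated parent of the other lines. The rho0 line, which lacks mitochondrial DNA (mtDNA), was made by growing TM6 for 3 weeks in ditercalinium dichloride dihydrochloride at 750 ng/mL, a drug that depletes mtDNA, and picking a colony grown from 1 cell. PKO-1 and PKO-6 are colonies, clone 1 and clone 6, each grown from 1 TM6 cell after an adenovirus delivered Cre recombinase to delete the floxed part of Pnpt1. All lines grew with uridine at 50 µg/mL. Each derived line is therefore 1 clone without mtDNA, whereas TM6 was not cloned in this study, so mtDNA loss and growth from 1 cell cannot be told apart in comparisons with TM6, and p-values measure the spread between cultures of a line.

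Hox genes encode homeodomain transcription factors that tell cells of the embryo where they lie along the body and limb axes. In each cluster the genes are lined up in the order in which they act, from paralog group 1, used early and toward the head, to group 13, used late and toward the tail and the ends of the limbs, and fibroblasts keep much of this code in culture as a record of the site they came from. The clusters are held silent by Polycomb complexes and opened step by step by Trithorax proteins, and Hox proteins bind DNA together with TALE homeodomain cofactors of the Pbx, Meis and Pknox families.

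Library totals were 47164860 to 67991378 estimated counts (median 55405646). Pnpt1, counted over the whole gene of which Cre deletes only a part, had 3131 ± 262 normalized counts in TM6, 5271 ± 230 in rho0, 1240 ± 44.3 in PKO-1 and 1944 ± 250 in PKO-6 (n = 3 each, SD). Of 11 fibroblast markers, 4 in TM6, 5 in rho0, 2 in PKO-1 and 3 in PKO-6 were under 1 TPM, a level scaled for transcript length and library depth, and Thy1 and Fap were under 1 TPM in all 4 lines. Col1a1, Col1a2, Vim and Fn1 were at 193 TPM or more in every line. Of the 9 tested, 1 was higher and 7 lower in rho0, 5 and 2 in PKO-1, and 2 and 5 in PKO-6 against TM6 (edgeR). In the same order, 20.7%, 16.4% and 21.9% of all tested genes were higher and 21.4%, 17.9% and 19.4% lower. The log2 fold change of Col3a1 was -3.32, 0.56 and -3.86 and that of Pdgfra -2.06, 3.24 and 0.28, both named after their values were seen. The summed fibroblast markers were 4275 to 4533 TPM in TM6, 3196 to 3268 in rho0, 4137 to 4318 in PKO-1 and 2375 to 2588 in PKO-6. Summed epithelial, endothelial, blood cell, neural, skeletal muscle and pluripotency markers were no more than 1.68, 0.23, 6.04, 1.17, 0.01 and 1.36 TPM in any library. The epithelial sum was 1.33 to 1.68 TPM in PKO-6 and at most 0.23 in the other lines, and the neural sum 1.01 to 1.17 in TM6, 0.28 to 0.41 in rho0, 0.27 to 0.46 in PKO-1 and 0.02 to 0.13 in PKO-6. The part of all these markers in the results was not tested. In such bulk samples fewer cells of a type and less RNA per cell cannot be told apart.

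In TM6 the RNA of HoxA, HoxC and HoxD reached groups 11 to 13, and in the 3 derived lines it stopped at a lower group in each of these clusters. Hoxa13, Hoxc10, Hoxc11, Hoxc12, Hoxc13, Hoxd10, Hoxd11, Hoxd12 and Hoxd13 were above 3 counts in TM6 and had 3 counts or fewer in each of the 9 libraries of rho0, PKO-1 and PKO-6. With a mean of at least 1 TPM as the level of an expressed gene, 29 of 39 members were expressed in TM6, 22 in rho0, 15 in PKO-1 and 25 in PKO-6. In TM6 the highest expressed paralog group was 13 in HoxA, 9 in HoxB, 11 in HoxC and 13 in HoxD. In rho0 it was 11, 7, 8 and 9, in PKO-6 it was 11, 9, 9 and 9, and in PKO-1 it was 11, 4 and 6 with no HoxD gene expressed. At 0.5 TPM these limits became 13 for HoxC in TM6, and 7 and 8 for HoxB and HoxC in PKO-1, whereas no HoxD gene of PKO-1 reached that level either. At 2 TPM the limit of HoxB was 4 in TM6, rho0 and PKO-1 and 7 in PKO-6, so its order against TM6 depends on the level chosen, and that of HoxD in rho0 was 8. The other limits were the same at 1 and 2 TPM. Hoxb1 had 0 counts in all 12 libraries and Hoxd1 1 count in 1 library.

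**Figure D1:**
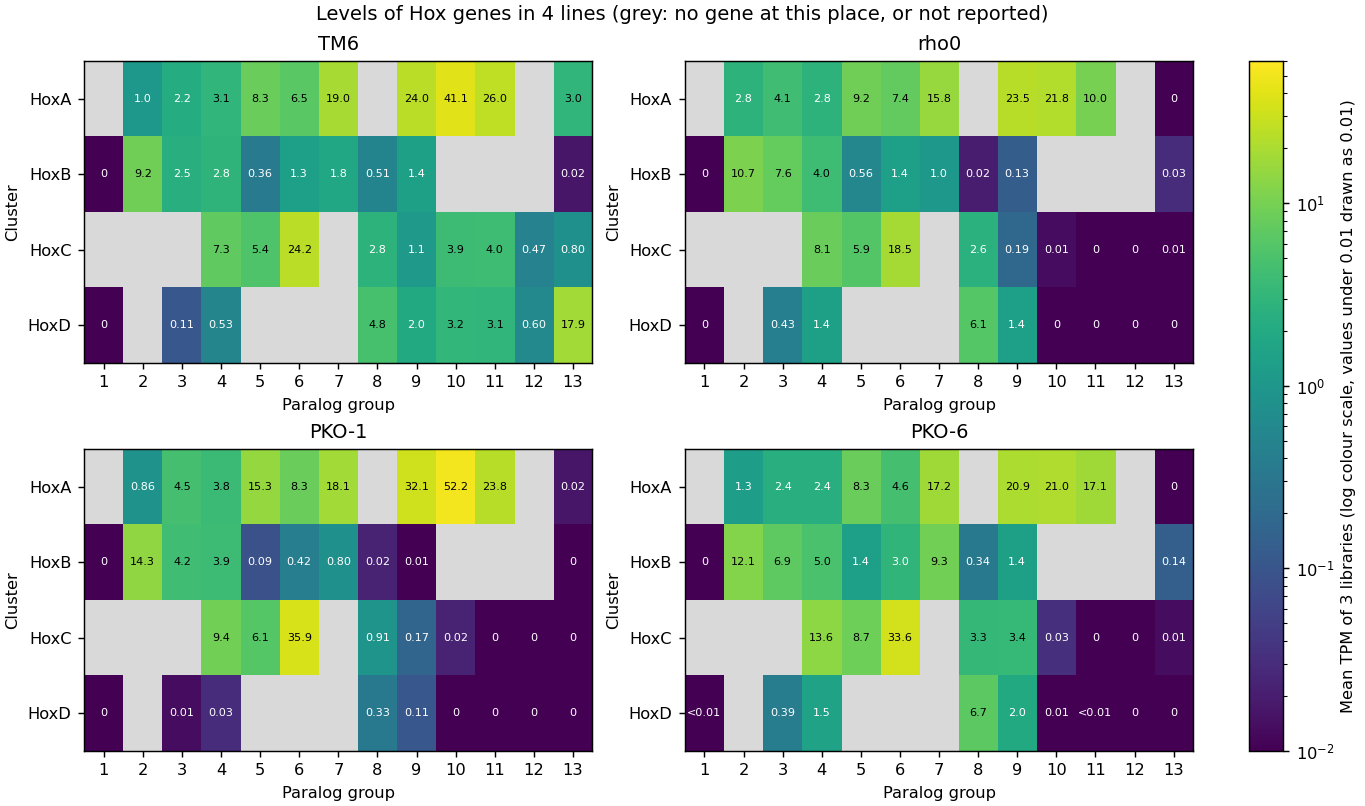
Mean TPM of 3 libraries for each Hox gene, with the paralog group on the x axis and the cluster on the y axis, in 1 panel for each of the 4 lines; the colour is on a log scale, values under 0.01 TPM share 1 colour and grey marks places that hold no gene or one not reported here. Groups 10 to 13 of HoxC and HoxD hold values in TM6 (17.9 TPM for Hoxd13) and lie at 0.0333 TPM or less in the other lines, while Hoxa10 and Hoxa11 stay at 9.98 TPM or more.

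The upstream sequences of members at these limits are shown because RNA was lost in every derived line on 1 side of the limit and kept in rho0 and PKO-6, or in all lines, on the other. RefSeq's table (GRCm38.p6) held windows upstream of a start for 22 of the 39 members, 24 windows in all, each within 100 bases of a start in the deposited transcripts, and the 250 bases before the start are given 5′ to 3′ on the gene's strand, with CG dinucleotides (CpG) in capitals. In HoxD the limit fell between Hoxd10 and Hoxd9, whose transcribed regions lie 2656 bases apart. Hoxd13 (chr2:74667975-74668224, plus strand) and Hoxd10 (chr2:74691641-74691890, plus strand) lost their RNA, whereas Hoxd9 (chr2:74697513-74697762, plus strand) and Hoxd8 (chr2:74704365-74704614, plus strand) kept it in rho0 and PKO-6. The Hoxd8 window lies before the start of a transcript that held 1.67% ± 2.9 of Hoxd8 counts in TM6 (SD) and 0% in rho0 and PKO-6. Its other transcripts start downstream at base 74705489, and the sequence before that start is not shown.
Hoxd13: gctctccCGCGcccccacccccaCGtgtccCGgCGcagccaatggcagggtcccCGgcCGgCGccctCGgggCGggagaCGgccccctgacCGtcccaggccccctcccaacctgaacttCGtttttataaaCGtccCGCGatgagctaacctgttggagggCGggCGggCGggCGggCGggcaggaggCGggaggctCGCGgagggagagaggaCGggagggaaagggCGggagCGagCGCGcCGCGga
Hoxd10: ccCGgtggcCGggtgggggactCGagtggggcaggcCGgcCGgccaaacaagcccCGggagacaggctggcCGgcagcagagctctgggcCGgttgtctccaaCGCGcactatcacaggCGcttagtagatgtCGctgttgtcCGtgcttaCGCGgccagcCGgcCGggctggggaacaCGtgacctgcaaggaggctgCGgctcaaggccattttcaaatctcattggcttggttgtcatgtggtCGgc
Hoxd9: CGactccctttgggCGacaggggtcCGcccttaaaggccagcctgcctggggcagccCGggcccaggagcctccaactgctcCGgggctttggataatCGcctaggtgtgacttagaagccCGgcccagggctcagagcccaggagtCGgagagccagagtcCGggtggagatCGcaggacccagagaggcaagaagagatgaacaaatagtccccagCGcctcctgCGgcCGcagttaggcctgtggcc
Hoxd8: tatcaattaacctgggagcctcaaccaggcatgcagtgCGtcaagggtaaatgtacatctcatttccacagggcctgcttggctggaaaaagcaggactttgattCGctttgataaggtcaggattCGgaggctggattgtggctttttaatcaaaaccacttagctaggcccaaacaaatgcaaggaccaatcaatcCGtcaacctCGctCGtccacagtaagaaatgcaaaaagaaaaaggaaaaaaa
In HoxA the limit fell between Hoxa13 (chr6:52260881-52261130, minus strand), which lost its RNA, and Hoxa11 (chr6:52245811-52246060, minus strand), which kept it in all lines, and the transcribed regions lie 13042 bases apart.
Hoxa13: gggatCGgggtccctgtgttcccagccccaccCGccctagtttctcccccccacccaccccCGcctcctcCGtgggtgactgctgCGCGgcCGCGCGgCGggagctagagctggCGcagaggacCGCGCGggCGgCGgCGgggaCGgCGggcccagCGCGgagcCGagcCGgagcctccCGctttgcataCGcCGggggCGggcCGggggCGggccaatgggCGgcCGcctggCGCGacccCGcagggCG
Hoxa11: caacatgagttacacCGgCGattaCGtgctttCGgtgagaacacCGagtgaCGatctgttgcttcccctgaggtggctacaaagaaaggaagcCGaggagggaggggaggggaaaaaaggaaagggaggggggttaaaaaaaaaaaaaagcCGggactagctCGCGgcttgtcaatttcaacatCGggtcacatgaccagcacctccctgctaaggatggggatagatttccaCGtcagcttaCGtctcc
These windows hold 31 CpG for Hoxd13, 20 for Hoxd10, 13 for Hoxd9, 6 for Hoxd8, 35 for Hoxa13 and 13 for Hoxa11. The count for Hoxd8 belongs to the start with little or no RNA in TM6, rho0 and PKO-6. Over the 24 member windows the count ran from 2 to 35 with a median of 12.5, against a median of 6 over 32841 windows of the same length. Hoxd11, another lost member, had 2 CpG in 1 of its windows and 20 in the other, and Hoxd12, also lost, had 10. Among members kept in all lines, Hoxa5 had 28, Hoxa6 24 and Hoxa3 18, whereas Hoxa7 had 7 and Hoxa9 3. Whether CpG content goes with the loss was not tested. The motif TGATNNAT, at which Pbx and Hox proteins can bind together, was found on either strand in 4 of 24 member windows and in 7.69% of all windows, and the TATA box core TATAAA in 4 of 24 and in 12.4%, counted separately so that matches may share bases. None of the 6 windows shown held TGATNNAT, and Hoxd13 alone among them held TATAAA, at 1 place that matches on both strands with shared bases.

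Across all tested genes, 14026 passed the filter on low counts, as did 35 of the 39 members (not Hoxb1, Hoxb13, Hoxc12 and Hoxd1). A gene was called where edgeR's quasi-likelihood test gave an adjusted p under 0.01 and a log2 fold change beyond 0.5 in either direction. In rho0 against TM6, 7 members were higher and 14 lower, 20% and 40.0% of those tested, where 20.7% and 21.4% of all tested genes were. In PKO-1 against TM6, 7 were higher and 19 lower (20% and 54.3%, against 16.4% and 17.9% of all genes). In PKO-6 against TM6, 12 were higher and 10 lower (34.3% and 28.6%, against 21.9% and 19.4%). The median log2 fold change of the tested members was -0.16, -1.54 and 0.07 in these comparisons, and that of all tested genes lay between 0.00 and 0.02. Setting members at 0 in a line to the bound that 3 counts allow left these medians as they were. The shares of members called higher in rho0 and PKO-1 lie near those of all genes. Members detected in TM6 alone passed the filter through TM6 and so had to be lower elsewhere, and the 3 comparisons share the TM6 libraries, so these counts describe the members and are not support for a direction. Without rho0 replicate 2, 4 in place of 7 members were higher in rho0 than in TM6.

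The derived lines also differed from each other. PKO-1 had 6 members higher and 14 lower than PKO-6 (17.1% and 40.0%, against 11.5% and 17.6% of all genes). It had 4 members higher and 10 lower than rho0 (11.4% and 28.6%, against 15.1% and 17.6%). PKO-6 had 10 members higher and 1 lower than rho0 (28.6% and 2.86%, against 13.3% and 8.15%), the 1 being Hoxa3, named after its value was seen. The 6 members higher in PKO-1 than in PKO-6 all lie in HoxA, and the 14 lower ones lie in HoxB (6), HoxC (4) and HoxD (4). By position, members of groups 1 to 4 were called higher than in TM6 in 7 of 10 tested cases in rho0, 5 in PKO-1 and 5 in PKO-6, and lower in 0, 2 and 0 by edgeR and by DESeq2, with 0, 2 and 0 lower also at an unadjusted edgeR p under 0.05. Of all tested genes 20.7%, 16.4% and 21.9% were called higher in rho0, PKO-1 and PKO-6. The calls of Hoxa2, Hoxb4 and Hoxd4 in rho0 and of Hoxb4 in PKO-1 were each lost when certain single libraries were left out. Members of groups 10 to 13 were called lower in 10, 8 and 10 of 10 tested cases, where 21.4%, 17.9% and 19.4% of all genes were, but those other than Hoxa10 and Hoxa11 passed the filter through TM6 alone and had to be lower. In the other direction 0 were called in each line by either tool, and at an unadjusted edgeR p under 0.05 it was 0 in rho0, 1 in PKO-1 (Hoxa10) and 0 in PKO-6. The summed TPM of groups 1 to 3 was 16.8 ± 1.09 in TM6, 28.5 ± 3.96 in rho0, 27.1 ± 1.47 in PKO-1 and 25.5 ± 2.52 in PKO-6, and that of groups 12 and 13 was 22.8 ± 1.53, 0.04 ± 0.0346, 0.0167 ± 0.0289 and 0.15 ± 0.0361 (n = 3 each, SD).

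**Figure D2:**
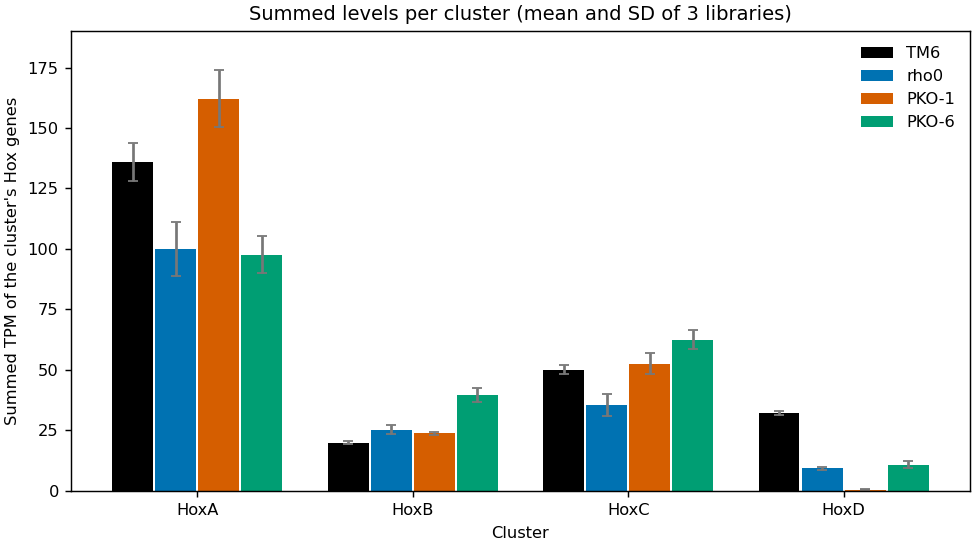
Summed TPM of the Hox genes of each cluster (y axis, linear from 0) in the 4 lines; bars are the mean and error bars the SD of 3 libraries. HoxA gives the largest sum in each line (97.6 to 162 TPM), and HoxD falls from 32.1 TPM in TM6 to 10.7 in PKO-6, 9.26 in rho0 and 0.483 in PKO-1.

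The balance between clusters differed between lines. All 39 genes summed to 238 ± 10.4 TPM in TM6, 170 ± 17.9 in rho0, 239 ± 16.5 in PKO-1 and 210 ± 15.7 in PKO-6 (n = 3 each, SD). HoxA held 57.1%, 58.9%, 67.9% and 46.4% of this sum in the same order, HoxB 8.35%, 14.9%, 9.93% and 18.8%, HoxC 21%, 20.8%, 22% and 29.8%, and HoxD 13.5%, 5.45%, 0.203% and 5.06%. The summed TPM of PKO-1 was thus close to that of TM6 while its HoxD part was nearly gone. Hoxa10 was the member with the highest level in TM6 (41.1 ± 0.92 TPM) and in PKO-1 (52.2 ± 2.86), Hoxc6 in PKO-6 (33.6 ± 2.32), and in rho0 Hoxa9 (23.5 ± 3.36) and Hoxa10 (21.8 ± 0.818) lay within their spread of each other. In TM6 Hoxa11 (26 ± 0.616 TPM), Hoxc6 (24.2 ± 1.68) and Hoxa9 (24 ± 2.18) followed with overlapping libraries, and Hoxd13 was sixth at 17.9 ± 1.31 TPM (SD, n = 3).

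HoxD showed the largest losses. Hoxd13, which patterns digits and the genital tubercle, had 1238, 1427 and 1410 normalized counts in the 3 TM6 libraries and 0 in each of the 9 others. With 3 counts over a line's libraries as the most that a count of 0 allows, it was at least 1277-fold lower in rho0, 1239-fold in PKO-1 and 1452-fold in PKO-6. Hoxd11, needed for the forearm bones together with Hoxa11, had 406, 313 and 376 in TM6, 0 in all rho0 and PKO-1 libraries, and 0.819, 0 and 0 in PKO-6. Hoxd10, a gene of the hindlimb and lumbar spinal cord, had 188, 147 and 187 in TM6, 0 in rho0 and PKO-1, and 0.819, 0 and 0.97 in PKO-6. No library of a derived line came near the TM6 range for any of these genes. They passed the filter through TM6 alone, so no test is given for them. Against rho0 and PKO-1, TM6 was at least 345-fold and 335-fold higher for Hoxd11 and at least 165-fold and 160-fold for Hoxd10. In PKO-6, with 1 count of Hoxd11 and 2 of Hoxd10 in all, the ratios of counts were 1178 (exact 95% interval 211 to 46574) and 280 (77.3 to 2322), which cover counting error only. Hoxd12 went from 41.9 to 51.6 in TM6 to 0 in the 9 others, at least 42.8-fold lower.

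The other side of HoxD split the derived lines. Hoxd9, a trunk and limb gene, showed 140, 118 and 117 normalized counts in TM6, 110, 75.3 and 79.3 in rho0, 4.76, 11.7 and 5.17 in PKO-1, and 140, 124 and 130 in PKO-6. Hoxd8, active in the trunk, had 271, 313 and 294 in TM6, 386, 377 and 373 in rho0, 23.8, 13.8 and 20.7 in PKO-1, and 422, 427 and 441 in PKO-6. PKO-1 lay below every library of the other lines for both. Its log2 fold change against PKO-6 was -4.15 for Hoxd9 (SE 0.27, edgeR adjusted p = 1.61e-08) and -4.47 for Hoxd8 (SE 0.141, edgeR adjusted p = 1.35e-11). Against TM6 it was -4.08 (SE 0.271) and -3.91 (SE 0.143), and both were called. In PKO-6 Hoxd8 was higher than in TM6 at 0.55 (SE 0.102, edgeR adjusted p = 2.42e-04), a call lost without TM6 replicate 1 (0.47), and Hoxd9 differed by 0.07 (SE 0.183, edgeR adjusted p = 0.744).

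Toward the head end of HoxD the lines moved apart further. Hoxd4, which shapes the neck vertebrae, showed 56.2, 23.9 and 44.9 normalized counts in TM6, 77.5, 139 and 116 in rho0, 1.19, 4.26 and 2.07 in PKO-1, and 139, 76.7 and 150 in PKO-6. It was higher than in TM6 in rho0 (log2 fold change 1.40, SE 0.327, edgeR adjusted p = 0.00169) and in PKO-6 (1.55, SE 0.324, edgeR adjusted p = 7.08e-04), and lower in PKO-1 (-3.97, SE 0.578, edgeR adjusted p = 3.71e-05). The call in rho0 was lost without rho0 replicate 2 (1.18, edgeR adjusted p = 0.0107). Hoxd3, under 100 counts everywhere, ranged from 3.82 to 18.2 in TM6, 35.8 to 40.2 in rho0, 1.03 to 2.13 in PKO-1 and 22.8 to 46.7 in PKO-6, with the same directions of calls. The transcribed region of Hoxd3 spans that of Hoxd4, which lies on the same strand, but their annotated exons share no bases. Thus of the 4 HoxD genes that rho0 and PKO-6 kept, PKO-1 was lower than both for each.

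**Figure D3:**
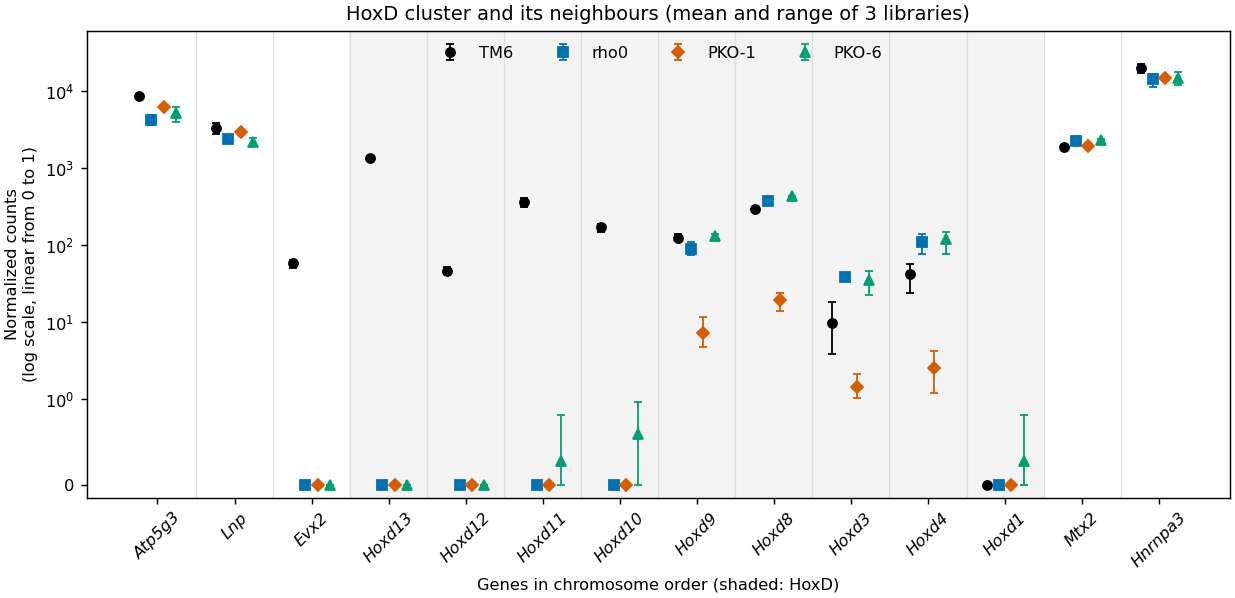
Normalized counts (y axis, log scale that is linear from 0 to 1) of the HoxD genes and their nearest listed neighbours in chromosome order on the x axis; points are the mean of 3 libraries and bars run from the lowest to the highest. Evx2 and Hoxd13 to Hoxd10 have counts in TM6 and lie at 1 or below in the other lines, PKO-1 lies below the other lines from Hoxd9 to Hoxd4, and Lnp, Atp5g3, Mtx2 and Hnrnpa3 have means of 1911 or more in each line.

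HoxA kept most of its RNA in every line. Hoxa13, the partner of Hoxd13 in the hand and foot plate, showed 112, 102 and 124 normalized counts in TM6, 0 in rho0 and PKO-6, and 0, 2.13 and 0 in PKO-1. It was at least 106-fold lower in rho0 and 121-fold in PKO-6, and the ratio of counts was 155 for PKO-1 (exact 95% interval 42.5 to 1281), which had counts in replicate 2 alone. Hoxa11, a gene of the forearm, kidney and uterus, had 1849, 1792 and 1788 in TM6, 831, 604 and 690 in rho0, 1820, 1788 and 1585 in PKO-1, and 1240, 1379 and 1090 in PKO-6. Hoxa10, which suppresses ribs in the lumbar spine and is needed in the uterus, had 3068, 2933 and 2944 in TM6, 1668, 1528 and 1562 in rho0, 4040, 3807 and 3891 in PKO-1, and 1584, 1541 and 1517 in PKO-6. These were the 2 genes of groups 10 to 13 expressed in any derived line. Hoxa10 fell by 0.91 on the log2 scale in rho0 (SE 0.0489, edgeR adjusted p = 1.43e-09) and by 0.95 in PKO-6 (SE 0.0487, edgeR adjusted p = 7.56e-10). In PKO-1 it differed from TM6 by 0.39 (SE 0.0477, edgeR adjusted p = 6.96e-06), under the fold that was called, and from PKO-6 by 1.34 (SE 0.049, edgeR adjusted p = 5.07e-11). Hoxa11 fell in rho0 (-1.35, SE 0.108, edgeR adjusted p = 7.68e-08) and in PKO-6 (-0.55, SE 0.104, edgeR adjusted p = 3.02e-04), a call lost without PKO-6 replicate 3 (-0.47), and differed by -0.06 in PKO-1 (SE 0.103, edgeR adjusted p = 0.603). Hoxa11 shares 568 exonic bases with the antisense RNA Hoxa11os, which had 772 ± 39.3, 377 ± 3.16, 599 ± 5.54 and 702 ± 46.3 counts in TM6, rho0, PKO-1 and PKO-6 (n = 3 each, SD), and whether strand was used in counting is not given in the sources used here.

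The middle of HoxA was the most even stretch of the 4 clusters. Hoxa9, a driver of blood progenitors and of leukemia, showed 2402, 2125 and 2517 normalized counts in TM6, 2127, 2461 and 2378 in rho0, 3270, 3067 and 3488 in PKO-1, and 2003, 1949 and 2357 in PKO-6. Hoxa7 lay between 890 and 1156 in all 12 libraries and was called in none of the 6 comparisons. PKO-1 was the high line for Hoxa9, by 0.64 against PKO-6 (SE 0.086, edgeR adjusted p = 2.09e-05). Hoxa5, needed for lung and shoulder, had 506, 385 and 507 in TM6, 445, 554 and 554 in rho0, 842, 827 and 1007 in PKO-1, and 502, 445 and 497 in PKO-6. Its increase in PKO-1 was 0.94 against TM6 (SE 0.124, edgeR adjusted p = 1.57e-05) and 0.89 against PKO-6 (SE 0.124, edgeR adjusted p = 2.92e-05), and no PKO-1 library overlapped another line. Hoxa6 had 143, 77.4 and 109 in TM6, 99.8, 145 and 135 in rho0, 119, 135 and 187 in PKO-1, and 88.4, 72.5 and 82.4 in PKO-6. Hoxa4 had 151, 138 and 123 in TM6, 98.8, 152 and 118 in rho0, 175, 150 and 200 in PKO-1, and 120, 101 and 108 in PKO-6. These 2 trunk genes were called between the clones alone (0.86 and 0.67, PKO-1 against PKO-6). The call of Hoxa6 was lost without PKO-1 replicate 3 or any 1 of the PKO-6 libraries (0.65 to 0.93), and that of Hoxa4 without PKO-1 replicate 3 (0.57) or PKO-6 replicate 2 (0.62).

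At the head end of HoxA, Hoxa3, which the third pharyngeal arch, thymus and parathyroid need, showed 192, 143 and 173 normalized counts in TM6, 252, 366 and 354 in rho0, 340, 338 and 429 in PKO-1, and 207, 176 and 195 in PKO-6. It rose in rho0 and PKO-1, by 0.93 (SE 0.159, edgeR adjusted p = 1.29e-04) and 1.12 (SE 0.158, edgeR adjusted p = 2.75e-05). In PKO-6 its difference from TM6 was 0.19 and was not called. Hoxa2, the selector gene of the second pharyngeal arch, had 75.2, 32.5 and 54.8 in TM6, 87.2, 193 and 157 in rho0, 40.5, 51.1 and 49.6 in PKO-1, and 57.3, 46.6 and 98.9 in PKO-6. It was higher in rho0 than in TM6 (1.41, SE 0.342, edgeR adjusted p = 0.00211), a call lost without rho0 replicate 2 (1.14, edgeR adjusted p = 0.0146) or TM6 replicate 2 (1.15, edgeR adjusted p = 0.0107). Hoxa3 overlaps Hoxaas2 on the other strand over 390 exonic bases, and Hoxaas2 was also higher in rho0 than in TM6 (78.5 ± 14.4 against 25.1 ± 8.71, SD, n = 3).

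HoxC resembled HoxD at its tail end. Hoxc10, a marker of the lower body and hindlimb, showed 230, 234 and 211 normalized counts in TM6, 0, 1.11 and 1.12 in rho0, 1.19, 2.13 and 1.03 in PKO-1, and 1.64, 2.07 and 1.94 in PKO-6. Counts in TM6 over those of the derived line gave a ratio of 319 for rho0 (exact 95% interval 88 to 2640), 155 for PKO-1 (60.2 to 570) and 121 for PKO-6 (55.3 to 331). All 9 derived libraries lay near 0, and the gene passed the filter through TM6 alone. Hoxc11 had 89.1 to 106 in TM6 and 0 in the 9 other libraries, at least 89.1-fold lower. Hoxc12 had 6.92 to 12 in TM6 and 0 in the 9 others, at least 9.14-fold lower, and was not tested because it did not pass the filter. Hoxc13, a gene of hair and nails, had 54.5 to 64 in TM6 and at most 2.22 in the 9 others.

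Hoxc9 and Hoxc8 marked the differences between the derived lines. Hoxc9, a gene of the thoracic body, showed 66.6, 50.6 and 47.9 normalized counts in TM6, 15.5, 4.43 and 10 in rho0, 9.52, 9.59 and 8.27 in PKO-1, and 188, 175 and 170 in PKO-6. Hoxc8, which acts in the thoracic body and forelimb motor neurons, had 170, 218 and 212 in TM6, 176, 196 and 197 in rho0, 78.6, 63.9 and 64.1 in PKO-1, and 228, 200 and 304 in PKO-6. For Hoxc9 the lines did not overlap, save rho0 with PKO-1. It was lower than in TM6 in rho0 (log2 fold change -2.42, SE 0.286, edgeR adjusted p = 4.05e-06) and PKO-1 (-2.58, SE 0.294, edgeR adjusted p = 3.61e-06), and higher in PKO-6 (1.68, SE 0.209, edgeR adjusted p = 6.41e-06). Hoxc8 was called against TM6 in PKO-1 alone, at -1.54 (SE 0.172, edgeR adjusted p = 3.00e-06) and -1.83 against PKO-6 (SE 0.171, edgeR adjusted p = 6.26e-07).

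The 3 genes at the head end of HoxC stayed expressed in all lines. Hoxc6, a marker of the anterior thorax, showed 1203, 1060 and 1111 normalized counts in TM6, 814, 905 and 896 in rho0, 1656, 1695 and 1885 in PKO-1, and 1606, 1635 and 1621 in PKO-6. Hoxc5 had 475, 435 and 461 in TM6, 436, 527 and 548 in rho0, 548, 513 and 543 in PKO-1, and 749, 779 and 741 in PKO-6. Hoxc4 had 455, 419 and 424 in TM6, 478, 479 and 508 in rho0, 609, 580 and 567 in PKO-1, and 872, 861 and 784 in PKO-6. For Hoxc5 and Hoxc4, genes of the neck and upper trunk, PKO-6 lay above every other library. Against TM6 its log2 fold change was 0.73 for Hoxc5 (SE 0.0869, edgeR adjusted p = 4.45e-06) and 0.96 for Hoxc4 (SE 0.0731, edgeR adjusted p = 4.52e-08). PKO-1 was below PKO-6 with -0.50 for Hoxc5 and -0.52 for Hoxc4, close to the fold that was called. The call of Hoxc5 was lost without any 1 TM6 or rho0 library, PKO-1 replicate 2 or PKO-6 replicate 2 (-0.50 to -0.47), and that of Hoxc4 without PKO-1 replicate 3 or PKO-6 replicate 1 or 2 (-0.50 to -0.49). Hoxc6 was higher than in TM6 in PKO-1 (0.63, SE 0.0669, edgeR adjusted p = 1.76e-06) and in PKO-6 (0.53, SE 0.0668, edgeR adjusted p = 7.96e-06), the second call being lost without TM6 replicate 2 (0.48), PKO-6 replicate 2 or any 1 rho0 library (0.49 each). The median log2 fold change of the 553 other tested genes of chromosome 15 was -0.38 in rho0, -0.23 in PKO-1 and -0.09 in PKO-6 against TM6. With this median subtracted, the calls of Hoxc4 and Hoxc5 in PKO-1 against PKO-6 (-0.37 and -0.35) and in PKO-6 against rho0 (0.47 and 0.27) ended, and the other calls of the HoxC genes given by library stayed.

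HoxB, of which the tail gene Hoxb13 had at most 5.82 normalized counts (in PKO-6), rose at its head end in the derived lines. Hoxb2, a hindbrain gene, showed 425, 445 and 443 normalized counts in TM6, 540, 505 and 505 in rho0, 715, 750 and 679 in PKO-1, and 581, 624 and 598 in PKO-6. Hoxb3 had 276, 224 and 271 in TM6, 754, 832 and 817 in rho0, 444, 437 and 484 in PKO-1, and 750, 718 and 771 in PKO-6. Hoxb4, known for expanding blood stem cells, had 234, 208 and 224 in TM6, 346, 308 and 305 in rho0, 327, 316 and 315 in PKO-1, and 396, 428 and 406 in PKO-6. For these 3 genes all 9 derived libraries lay above all TM6 libraries. Hoxb3 rose by 1.64 in rho0 (SE 0.091, edgeR adjusted p = 2.02e-09), 0.82 in PKO-1 (SE 0.0918, edgeR adjusted p = 2.95e-06) and 1.54 in PKO-6 (SE 0.0907, edgeR adjusted p = 3.02e-09), and PKO-1 was below PKO-6 with -0.71 (SE 0.088, edgeR adjusted p = 9.19e-06). Hoxb4 rose by 0.88 in PKO-6 (SE 0.0863, edgeR adjusted p = 6.03e-07) and by 0.52 in rho0 and in PKO-1. These last calls were lost without TM6 replicate 2 (0.48 in both) or rho0 replicate 1 (0.45 and 0.49), and that of PKO-1 also without rho0 replicate 2 or 3 or PKO-6 replicate 1 or 2 (0.49 each) or with the median of its chromosome subtracted (0.48). Hoxb2 passed the threshold in PKO-1 (0.71, SE 0.0709, edgeR adjusted p = 1.05e-06), while its differences of 0.24 in rho0 and 0.46 in PKO-6 were under the fold that was called.

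The trunk genes Hoxb5 to Hoxb9 set the lines furthest apart within HoxB. Hoxb7 showed 59.7, 62.1 and 68.8 normalized counts in TM6, 37.8, 29.9 and 43.5 in rho0, 31, 28.8 and 30 in PKO-1, and 347, 343 and 343 in PKO-6. Hoxb6 had 60.5, 47.8 and 42.9 in TM6, 49.4, 46.5 and 58.1 in rho0, 16.7, 13.8 and 18.6 in PKO-1, and 128, 108 and 114 in PKO-6. Hoxb9, a gene of the thoracic body, had 116, 119 and 120 in TM6, 14.5, 6.65 and 12.3 in rho0, 1.19, 0 and 2.07 in PKO-1, and 129, 121 and 113 in PKO-6. PKO-6 was the high line for Hoxb6 and Hoxb7, while for Hoxb9 its libraries spanned those of TM6. Against TM6, Hoxb7 rose by 2.44 in PKO-6 (SE 0.126, edgeR adjusted p = 7.78e-10) and fell by 0.77 in rho0 (SE 0.148, edgeR adjusted p = 3.42e-04) and by 1.08 in PKO-1 (SE 0.153, edgeR adjusted p = 2.87e-05). Hoxb6 rose by 1.21 in PKO-6 (SE 0.17, edgeR adjusted p = 2.15e-05), fell by 1.62 in PKO-1 (SE 0.212, edgeR adjusted p = 1.42e-05) and differed by 0.02 in rho0 (SE 0.181, edgeR adjusted p = 0.955). Hoxb9 fell by 3.38 in rho0 (SE 0.249, edgeR adjusted p = 3.47e-08), and the ratio of TM6 to PKO-1 counts was 108 (exact 95% interval 36.7 to 527). Hoxb5 ranged from 3.57 to 7.24 in PKO-1 and from 66.3 to 87.6 in PKO-6, with 15.3 to 43.2 in TM6 and rho0. Hoxb8 had 26.2 to 45.8 in TM6 and PKO-6 and 1.03 to 4.26 in rho0 and PKO-1.

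**Figure D4:**
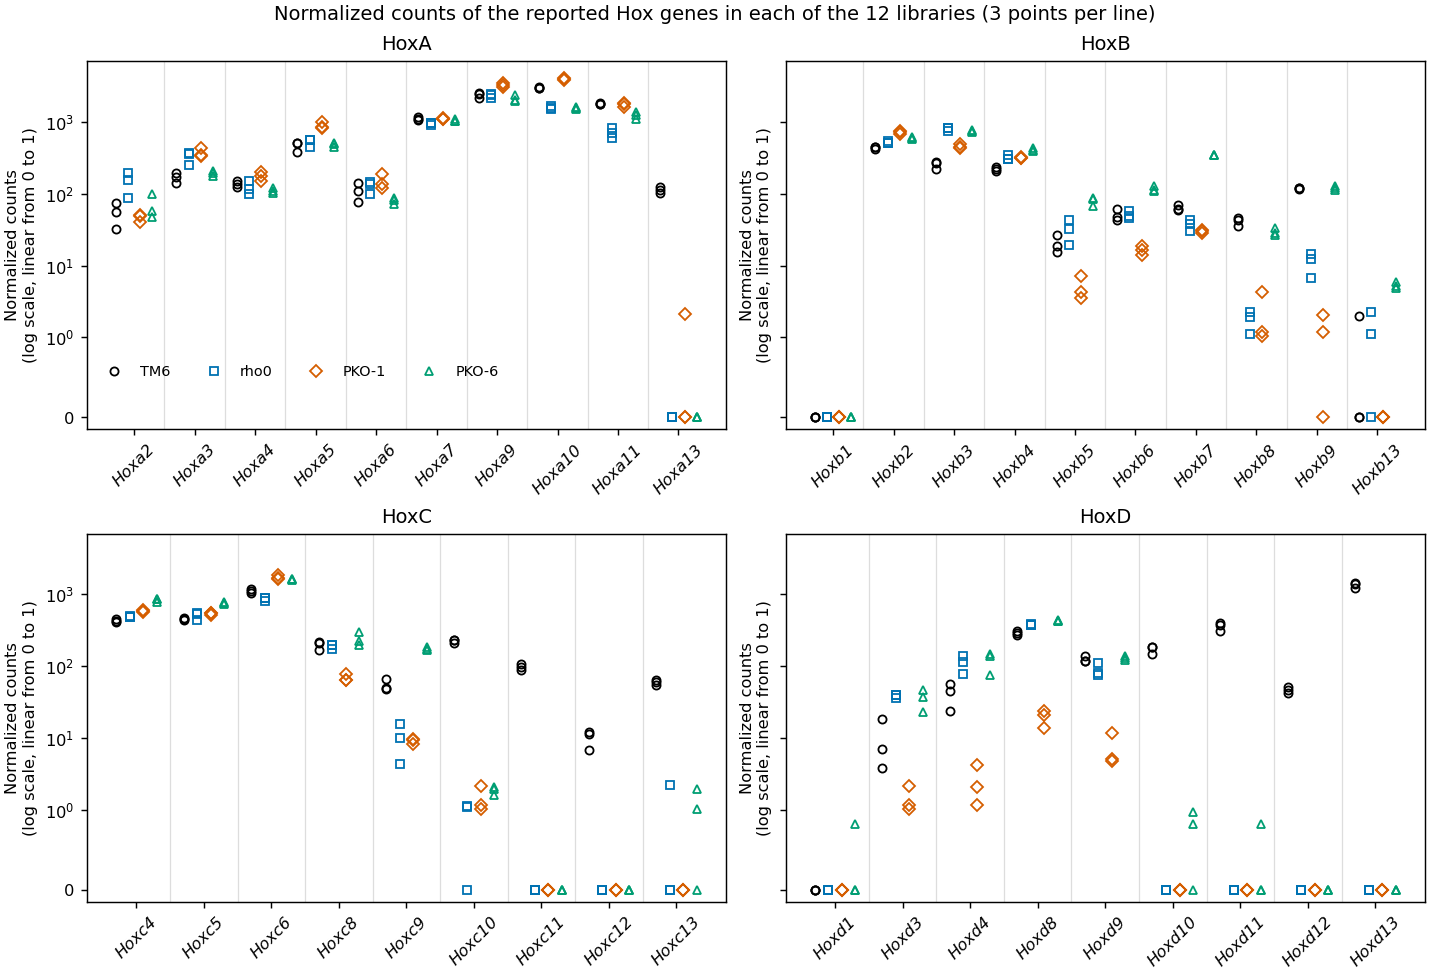
Normalized counts (y axis, log scale that is linear from 0 to 1) of the reported Hox genes in each of the 12 libraries, in 1 panel per cluster with the genes ordered by paralog group on the x axis; each symbol is 1 library and the colour gives the line. Libraries of different lines overlap for Hoxa4, Hoxa6 and Hoxa7, the derived lines lie at or near 0 from Hoxc10 and Hoxd10 onward, and PKO-1 lies lowest from Hoxd3 to Hoxd9.

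Transcripts of a member with more than 1 start were compared as shares of its counts. The transcript of Hoxa10 from the upstream start held 41.3% ± 5.01 of its counts in TM6, 47.6% ± 4.85 in rho0, 47.4% ± 2.29 in PKO-1 and 52.9% ± 5.98 in PKO-6 (n = 3 each, SD). For Hoxb3 the transcript from the upstream start held 66% ± 21.8, 54.5% ± 12.9, 57.6% ± 16.2 and 68.9% ± 12.1. For Hoxb3 the libraries of all lines overlap, whereas for Hoxa10 those of TM6 overlap neither PKO-1 nor PKO-6. The shares were not tested, and they rest on an estimated division of reads that the transcripts share. In TM6, 30.6% ± 6.69 of Hoxd11 counts belonged to the transcript from its upstream start. The upstream start of Hoxd8 held 1.67% ± 2.9 in TM6 and 0% in rho0 and PKO-6. Its share ran from 0% to 100% in the PKO-1 libraries, where Hoxd8 had at most 23.8 normalized counts.

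A homeobox gene and noncoding RNAs beside the lost members showed the same pattern. Evx2, a homeobox gene next to Hoxd13, had 58.4 ± 7.5 counts after normalization in TM6 and 0 in all 9 other libraries (SD, n = 3). Hotair, a long noncoding RNA between Hoxc12 and Hoxc11, had 22.4 ± 8.33 in TM6 and 0 in the others, and Hottip, which lies beyond Hoxa13, had 11.2 ± 2.31 in TM6, 0 in rho0 and PKO-1 and 0.669 ± 0.58 in PKO-6. These 3 genes, and Hotairm1 and Hoxaas2, were chosen after their values were seen. Evx2 was at least 53.1-fold and Hotair at least 20.8-fold lower in each derived line. Hotairm1, a noncoding RNA of HoxA, had 33.2 ± 10.3, 34.4 ± 4.65, 26.1 ± 6.21 and 30.5 ± 8.01 in TM6, rho0, PKO-1 and PKO-6, and was not called in any comparison with TM6 (smallest edgeR adjusted p 0.304). Of 16 listed noncoding genes of the clusters in the table, 6 were tested, and 1, 0 and 0 were higher and 3, 2 and 2 lower in rho0, PKO-1 and PKO-6 against TM6 (the higher counts are also 1, 0 and 0 by DESeq2 and at an unadjusted edgeR p under 0.05), with medians of -0.49, -0.36 and -0.13. The 2 lower in PKO-1 and in PKO-6 were genes at or near 0 outside TM6, Hotair being 1 of them. They passed the filter through TM6 alone and had to be lower, as did 2 of the 3 in rho0. The rows of 6 listed microRNA genes of the clusters held 0 counts in all libraries. Of 23 listed neighbours in the table, 21 were tested, and 0, 2 and 2 were higher (7, 6 and 6 at an unadjusted edgeR p under 0.05; 0, 2 and 2 by DESeq2) and 4, 2 and 4 lower, with medians of -0.10, -0.04 and 0.13. Evx2, 1 of the lower neighbours in each derived line, also passed the filter through TM6 alone. In rho0, PKO-1 and PKO-6 20.7%, 16.4% and 21.9% of all tested genes were higher and 21.4%, 17.9% and 19.4% lower. The neighbour Lnp, on the far side of Evx2, had 3333 ± 525, 2401 ± 235, 2921 ± 159 and 2173 ± 258 counts, and Skap2, a signaling adaptor at the head end of HoxA, 1588 ± 34.2, 2234 ± 41.9, 2463 ± 66.8 and 1970 ± 76.2 (n = 3 each, SD).

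Of the 9 TALE cofactors, 2 were higher and 3 lower in rho0, 2 and 2 in PKO-1, and 1 and 2 in PKO-6 against TM6, with medians of 0.00, 0.07 and -0.07. Of all tested genes 20.7%, 16.4% and 21.9% were higher and 21.4%, 17.9% and 19.4% lower. Meis3, a cofactor that can bind with Hox proteins, had 188 ± 18.5 normalized counts in TM6, 473 ± 33.3 in rho0, 19.5 ± 5.69 in PKO-1 and 450 ± 14 in PKO-6 (n = 3 each, SD), rising in rho0 and PKO-6 and falling in PKO-1. Meis1 had 735 ± 30, 1227 ± 10, 1316 ± 47.1 and 768 ± 38.6, and Pknox2 471 ± 25.6, 18.3 ± 1.49, 4.32 ± 1.64 and 32.4 ± 13.2, the latter lower in each derived line.

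Of 26 Polycomb genes, which hold Hox clusters silent, 4 were higher and 3 lower in rho0, 5 and 1 in PKO-1, and 4 and 1 in PKO-6, with medians of 0.17, 0.28 and 0.13, where 20.7%, 16.4% and 21.9% of all genes were higher and 21.4%, 17.9% and 19.4% lower. At an unadjusted edgeR p under 0.05 there were 13 and 5, 16 and 2, and 10 and 3. Ezh2, the main histone H3 lysine 27 methyltransferase, had 4228 ± 236 normalized counts in TM6, 5783 ± 215 in rho0, 7567 ± 182 in PKO-1 and 5186 ± 146 in PKO-6 (n = 3 each, SD), and passed the threshold in PKO-1 (0.84, SE 0.0526, edgeR adjusted p = 9.10e-09). Jarid2, a subunit that recruits Ezh2, fell in each derived line (-0.75, -0.52 and -0.60 in rho0, PKO-1 and PKO-6). Of 13 tested Trithorax and demethylase genes, 2 were higher and 0 lower in rho0, 0 and 1 in PKO-1, and 1 and 0 in PKO-6, with medians of -0.13, -0.00 and -0.09. DESeq2 gave the same counts, and at an unadjusted edgeR p under 0.05 there were 4 and 6, 5 and 5, and 1 and 6. Kdm6a, an enzyme that removes the mark Ezh2 sets, had 3320 ± 85.4, 2634 ± 26.7, 1361 ± 31.5 and 3537 ± 166 counts and was lower in PKO-1 (-1.29, SE 0.0482, edgeR adjusted p = 5.25e-11).

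Most tested genes of a list of those upstream of Hox clusters in the embryo were lower in the derived lines. The list of 24 genes holds Cdx factors, Gdf11 and the retinoic acid pathway, and 14 of them were tested, none of these a Cdx factor. Of the 14, 12 were lower and 1 higher in rho0 against TM6. In PKO-1 it was 9 and 0 (12 and 1 at an unadjusted edgeR p under 0.05, and 9 and 0 by DESeq2), and in PKO-6 9 and 1. The medians were -1.81, -0.93 and -1.13 in rho0, PKO-1 and PKO-6. Among all tested genes 21.4%, 17.9% and 19.4% were lower and 20.7%, 16.4% and 21.9% higher. Gdf11, a growth factor that turns on posterior Hox genes, had 566 ± 33.5 normalized counts in TM6, 92.8 ± 8.05 in rho0, 289 ± 19.4 in PKO-1 and 149 ± 7.77 in PKO-6. Cyp26b1, which breaks down retinoic acid, had 219 ± 8.66, 24.5 ± 11.2, 89.6 ± 8.65 and 38.6 ± 3.01 (n = 3 each, SD). Crabp1, a retinoic acid binding protein, had 710 ± 48.9, 128 ± 11.4, 136 ± 12.7 and 23.6 ± 3.86. These 3 genes were called lower in each derived line.

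Other factors of positional identity, 33 of 49 tested, were higher in 3, 10 and 2 cases and lower in 18, 16 and 19 cases in rho0, PKO-1 and PKO-6 against TM6, with medians of -0.76, -0.93 and -0.84. Of all tested genes 20.7%, 16.4% and 21.9% were higher and 21.4%, 17.9% and 19.4% lower. Hand2, a limb and heart factor, averaged 1489 ± 71.2 normalized counts across TM6 and 0 across the 9 others. Pitx1, which specifies the hindlimb, had 493 ± 19.7 in TM6, 0.695 ± 0.606 in rho0, 0.742 ± 0.647 in PKO-1 and 0 in PKO-6 (n = 3 each, SD). Alx4, a limb and skull factor, had 1064 ± 53.7, 24.7 ± 6.59, 0 and 1.26 ± 0.594. Foxd1, a factor of the kidney stroma, had 599 ± 54.8, 16.7 ± 4.1, 0.397 ± 0.687 and 6.23 ± 4.63. All 4 were called lower in each derived line. Hand2 and Pitx1 lay at or near 0 outside TM6, passed the filter through TM6 alone and so had to be lower. Other genes of the list at or near 0 outside TM6 are also among the lower counts, so those counts are not support for a direction.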

How the data were processed

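RNA of 4 lines in 3 replicates each was depleted of ribosomal RNA and sequenced as stranded libraries, with technical duplicates merged by the authors. The deposited values are expected counts, which the authors estimated with RSEM 1.2.25 and bowtie2 on mm10 RefSeq transcripts, and TPM, which the authors' files give per transcript and which were summed here per gene. Whether the authors' RSEM run used strand is not given in the sources used here. Expected counts were rounded (12.5% of values had decimals).

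In R 4.3.3 with edgeR 4.0.16, filterByExpr (minimum count 10) kept 14026 genes, TMM scaled the libraries, and a quasi-likelihood fit of the 4 lines gave 6 comparisons, with Benjamini-Hochberg adjustment over all tested genes. Each SE was taken as the absolute log2 fold change over the root of its F statistic. The test was checked on simulated data. Normalized counts are rounded counts scaled to the mean effective library size. Where a line had at most 3 counts in every library, a ratio of summed counts with an exact 95% interval replaces the fitted fold, or a bound against 3 counts over the line where it had 0. Intervals and bounds cover counting error only.

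Every library's value is given for the 28 members that averaged 100 or more normalized counts in a line and were called in a comparison, except 1 that is not reported here, as are 2 genes of the other lists. From each other list at most 4 genes were named, by the same minimum and the size of change, and exceptions are stated. Members and lists were chosen with earlier results of these data known. Promoter windows came from RefSeq tables. Alternatives were DESeq2 1.42.0, its size factors, no filter, a replicate block, the compared lines alone, a fold threshold of 1, subtraction of the chromosome's median, pooled clones as in the study, and each library left out. Samples with equal replicate numbers had deviations that correlated at -0.38 to 0.25. All 3 pairs exceeded 0.1 for TM6 with PKO-6 alone (0.21 to 0.25), so cultures of that comparison may have been paired. The main fit used no pairing in any comparison, and equal numbers enter only through the replicate block.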

Additional observations from a re-analysis of the deposited data

Results flagged for a closer look

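In 7 members the clones PKO-1 and PKO-6 were called in opposite directions against TM6, lower in PKO-1 and higher in PKO-6, and the difference between the clones was tested directly with edgeR. The log2 fold change of PKO-1 against PKO-6 was -3.94 for Hoxb5 (SE 0.37, edgeR adjusted p = 6.59e-07), -2.82 for Hoxb6 (SE 0.2, edgeR adjusted p = 3.96e-08) and -3.52 for Hoxb7 (SE 0.141, edgeR adjusted p = 1.22e-10). It was -4.27 for Hoxc9 (SE 0.272, edgeR adjusted p = 1.34e-08). In HoxD it was -4.52 for Hoxd3 (SE 0.603, edgeR adjusted p = 1.95e-05), -5.52 for Hoxd4 (SE 0.514, edgeR adjusted p = 6.08e-07) and -4.47 for Hoxd8 (SE 0.141, edgeR adjusted p = 1.35e-11). All 3 libraries of PKO-1 lay below all 3 of PKO-6 for each of these genes. The 7 members were picked by their opposite calls against the same TM6 libraries, so the direction between the clones was fixed in advance. These values give the size of the differences and are not further support for them. The share of all genes with opposite calls is not given here. A pooled fit of both clones averages these values. Groups of 3 libraries were too small for a test of single outlying libraries.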

How the results depend on the processing

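Of 1786 values of 91 called results of the 28 members under the alternatives, 1672 kept direction and call, 107 lost the call and 7 reversed. DESeq2's Wald test, DESeq2's size factors, no filter and the replicate block lost no call of these results, and the counts called with the replicate block were 21, 26, 22, 20, 14 and 11 in the order of the report, as without it. Pooling the clones reversed Hoxb6 (0.40), Hoxb7 (1.56), Hoxc9 (0.76) and Hoxd4 (0.59) in PKO-1 against TM6, Hoxd8 (-0.38) in PKO-6 against TM6, and Hoxb6 (0.38) and Hoxb9 (2.45) in PKO-1 against rho0, since this fit averages both clones. It left 14 called members against TM6 (6 higher, 8 lower) and 2 against rho0, both higher. The pooled fit ended 28 further calls of 58, subtracting the chromosome's median 6 of 91, and fitting the compared lines alone 3 of 90. With a log2 fold change beyond 1 required, 4 members were higher in rho0, 1 in PKO-1 and 7 in PKO-6 against TM6, 12 were called between the clones (1 higher), and 6 in PKO-6 against rho0, all higher. Without the filter, and with DESeq2's Wald test, 2 were lower in PKO-6 than in rho0. Leaving out 1 library gave 4 to 7 members higher in rho0 than in TM6 and 1 to 2 lower in PKO-6 than in rho0, and ended the call in 37 fits of 13 results, those named in the report, 1 not reported here, and Hoxc5 in PKO-6 against rho0 (0.47 without rho0 replicate 1). Members expressed in TM6, rho0, PKO-1 and PKO-6 numbered 33, 23, 18 and 25 at a minimum of 0.5 TPM, 22, 18, 15 and 21 at 2 TPM, and 35, 25, 20 and 27 at 10 normalized counts. The biological coefficient of variation was 0.0837 in the fit of 4 lines and 0.248 with pooled clones. At 3 replicates and these depths, members near 0 are limited by counts of 0 to 3.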
